A study of Mus musculus with 18 samples.

Results

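Mitosis genes are described here across wild-type (WT) and Klf3 knockout (KO) bone marrow-derived macrophages, cultured phagocytes grown from marrow precursors. The set is a list of 40 named genes that covers the kinetochore, the spindle checkpoint, entry kinases, the chromosomal passenger complex, kinesins, cytokinesis, anaphase ubiquitination, chromosome structure and 2 transcription factors. A gene was followed when a probe set of the array carried its symbol alone, and the probe set with the highest mean stood for it. This gave 38 of the 40 genes, out of 17097 genes in all. Ccnb1 and Nuf2 were not analysed here.

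All cells came from male FVB/NJ mice aged 10 to 14 weeks. Marrow was cultured for 7 to 10 days in medium with 10% serum and 20% L929-conditioned medium, which supplies the growth factor M-CSF. Cells were then washed and given plain serum-containing medium without the conditioned supplement. Samples were taken at that point (0 h), or 8 h later after phosphate-buffered saline (vehicle) or 100 ng/mL lipopolysaccharide (LPS), a bacterial outer membrane component. The 6 groups are therefore WT and KO cells at 0 h, after vehicle and after LPS, with 3 arrays each, and M-CSF-conditioned medium was absent for 8 h in both the vehicle and the LPS groups. The labels give no further description of the Klf3 allele, and they do not say whether replicates came from separate animals or cultures. P-values thus measure only the spread between these samples. In bulk samples, fewer cells in mitosis and less RNA per cell cannot be told apart.

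In mitosis, which separates the replicated chromosomes, cyclin-dependent, Aurora and Polo-like kinases drive entry, kinetochores attach chromosomes to the spindle, the spindle checkpoint delays anaphase until attachment is complete, and the anaphase-promoting complex then marks cyclins and securin for destruction. Transcription of these genes peaks in G2 and M phase, when the MuvB complex with B-Myb and FOXM1 binds the CHR element of their promoters and NF-Y binds the CCAAT box. In resting cells MuvB joins the DREAM complex, which represses the same promoters. M-CSF is a growth factor that drives cultured macrophages to divide.

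Promoter sequence shows a feature that the choice of genes did not use. RefSeq windows from 250 bases before to 50 bases after the gene start (GRCm38.p6) were found for 35 of the 40 genes, Ccnb1 and Nuf2 included. Ccna2, Aurkb, Kif20a, Tpx2 and Foxm1 are named only. The CHR element was searched as TTTGAA or TTCGAA and the CCAAT box as CCAAT, on both strands, which reads as TTCAAA and ATTGG on the other strand (TTCGAA is its own reverse complement). Neighbouring matches can share letters. Each share below counts a gene when any of its windows holds the match. A CHR match lay between 100 bases before and 50 bases after the start in 26 of 35 genes (74.3%), against 9.87% of all genes. A CCAAT match lay anywhere in the window in 26 of 35 (74.3%), against 41.1% of all genes. Both motifs occurred in 24 (68.6%) against 8.61%, and at least 2 CCAAT boxes in 19 (54.3%) against 13.3%. A match is a description of letters in this window.

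The following sites come only from genes that hold a CHR match. Cenpf, Aspm, Anln, Kif11 and Plk1 had some of the largest LPS falls described below, and Ccnb2, Bub1 and Mki67 had smaller ones. Birc5 and Melk, with log2 LPS differences of -3.86 and -3.18 in KO cells, hold neither a CHR nor a CCAAT match in the window. Capitals mark the CHR match at the centre of each site. The sequence reads 5′ to 3′ on the strand of the gene, and the flanks are the neighbouring bases. The Anln flank holds a further CHR match, TTCAAA, which is left in small letters. Cenpf lies at chr1:189688067-189688096 (minus strand), Aspm at chr1:139454767-139454796 (plus), Anln at chr9:22389161-22389190 (minus), Kif11, with the match read from the other strand, at chr19:37376351-37376380 (plus) and Plk1 at chr7:122159453-122159482 (plus). Ccnb2 lies at chr9:70421533-70421562 (minus) and Bub1, which holds the TTCGAA form, at chr2:127831828-127831857 (minus). Mki67, whose level changed least with LPS among the genes shown, lies at chr7:135716460-135716489 (minus).
Cenpf: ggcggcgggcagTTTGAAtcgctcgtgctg
Aspm: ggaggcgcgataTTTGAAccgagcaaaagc
Anln: tgaaattcaaatTTTGAAcggccgtggtag
Kif11: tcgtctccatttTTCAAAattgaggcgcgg
Plk1: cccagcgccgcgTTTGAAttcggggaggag
Ccnb2: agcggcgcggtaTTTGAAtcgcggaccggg
Bub1: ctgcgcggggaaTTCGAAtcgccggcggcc
Mki67: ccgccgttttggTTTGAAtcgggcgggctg

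The 250 bases before the start of Cdk1 (chr10:69352913-69353162, minus strand) and of Top2a (chr11:99024190-99024439, minus strand) show the arrangement of both motifs. Capitals mark CHR and CCAAT matches on either strand. Cdk1, the kinase that starts mitosis, holds 2 CHR and 3 CCAAT matches, and Top2a, which untangles sister chromatids, holds 4 CHR and 6 CCAAT matches.
Cdk1: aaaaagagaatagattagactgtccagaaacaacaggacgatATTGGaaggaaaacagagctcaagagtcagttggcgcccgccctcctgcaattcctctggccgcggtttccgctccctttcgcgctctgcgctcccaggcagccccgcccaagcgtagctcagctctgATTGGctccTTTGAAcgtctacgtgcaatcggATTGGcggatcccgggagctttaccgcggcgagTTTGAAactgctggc
Top2a: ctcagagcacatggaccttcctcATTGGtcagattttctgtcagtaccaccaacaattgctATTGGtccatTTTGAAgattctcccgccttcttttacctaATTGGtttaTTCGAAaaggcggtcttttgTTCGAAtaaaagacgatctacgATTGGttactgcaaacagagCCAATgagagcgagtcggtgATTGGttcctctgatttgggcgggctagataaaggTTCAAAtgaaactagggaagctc

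**Figure D1:**
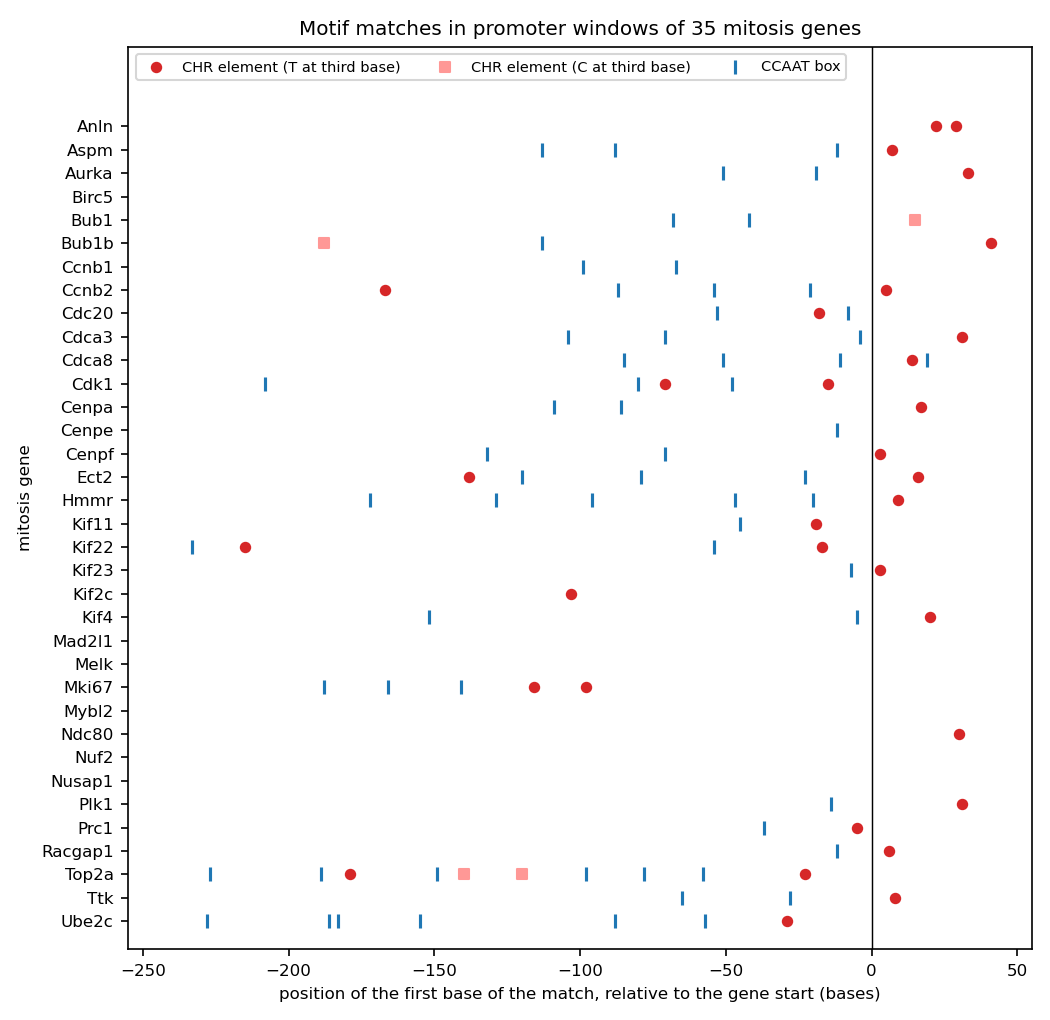
Positions of CHR elements (circles and squares) and CCAAT boxes (bars) relative to the gene start, in bases, in the first promoter window of 35 mitosis genes. CHR matches gather near the start, with 26 of 35 genes holding a match between 100 bases before and 50 bases after it, and CCAAT boxes lie mostly upstream.

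Across the 18 arrays the upper quartile of the deposited intensity ran from 67 to 167 units, and values below are on the scale after quantile normalization. The Klf3 probe set with the highest mean read 129.1 to 294.1 units in 9 WT arrays and 5.53 to 17.4 in 9 KO arrays, and the labels do not say which part was deleted. A nonspecific level was set in each array at the 95th percentile over 23 control probe sets without a specific target, and ran from 13.1 to 23.2 units. Of 11 macrophage markers 0 were at or under it throughout a group, whereas Kit, Flt3 and Myb were among 6 of 9 stem and progenitor markers at or under it in all 18 arrays. Summed progenitor markers were 178 to 202 units after vehicle and 67.6 to 93.7 after LPS in WT cells, and 94.1 to 271 and 74.5 to 81.5 in KO cells. Summed neutrophil markers (10 measured, 5 at or under the level in all 18 arrays) went from 100.3 to 138 units after vehicle to 531 to 879 after LPS in WT cells, and from 106 to 117 up to 472 to 641 in KO cells. Of the 10 only 2 were called higher with LPS by limma, Camp (log2 4.22 in WT and 4.75 in KO cells) and S100a8 (3.70 and 2.455). Elane was lower in WT cells (-0.65), and the list medians were 0.04 and 0.21. In the LPS groups 6 (WT) and 7 (KO) of the 10 were at or under the level in all 3 arrays. Summed erythroid and megakaryocyte markers (6 measured, 1 at or under the level in all 18 arrays) were 3015 to 4134 units after vehicle and 3335 to 6513 after LPS in WT cells. In KO cells they were 2466 to 4407 and 5705 to 6674, without overlap. Within KO cells Pf4 was higher after LPS than after vehicle (0.85 ± 0.27, adjusted p = 0.0192 by limma). The part of these 3 lists in the LPS results was not tested. The 5' minus 3' Gapdh control signal (log2), a measure of RNA integrity, moved with treatment. Means for 0 h, vehicle and LPS were 0.117 ± 0.017, -0.178 ± 0.098 and -0.436 ± 0.344 for WT arrays (SD, n = 3) and 0.092 ± 0.073, -0.212 ± 0.092 and -0.469 ± 0.082 for KO arrays, and its part in the results was not tested. Arrays of one row of the plate all came from one condition, which means that an effect of row and one of treatment cannot be told apart.

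KO vehicle array 3 stood apart by the size of its shift in these genes. All 38 genes read higher in it than in both other KO vehicle arrays, against 40% of all genes. This array lay above the mean of the other 2 by a median of 1.03 (log2; 0.40 to 1.61), against 0.013 over all genes. In 34 of the 38 it lay at or above the lowest KO 0 h array. Joint shifts of smaller size occurred in other groups. The mean deviation of the genes from their group mean was 0.70 (log2) in KO vehicle array 3. It was 0.22 in KO 0 h array 3, with 37 of 38 genes above the group mean. In WT vehicle array 3 it was -0.27, with 0 of 38 above. The summed stem and progenitor markers were 271 units in this array and 125 and 94.1 in the others, with Cd34 at 123, 39.6 and 16.8 units and Sox4 at 75.3, 21.7 and 16.9 for arrays 3, 1 and 2. Their part in the result was not tested. Macrophage markers summed to 27310 units in it and to 27950 and 27110 in arrays 1 and 2, but C1qb (109 units against 505 and 507) and C1qa (140 against 429 and 350) read lower in it. The summed erythroid and megakaryocyte markers, nearly all of them Pf4, read 2466 units against 3684 and 4407. KO counts of the mitosis genes, and KO differences of those described array by array, are given with and without array 3, and other KO values include it.

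**Figure D2:**
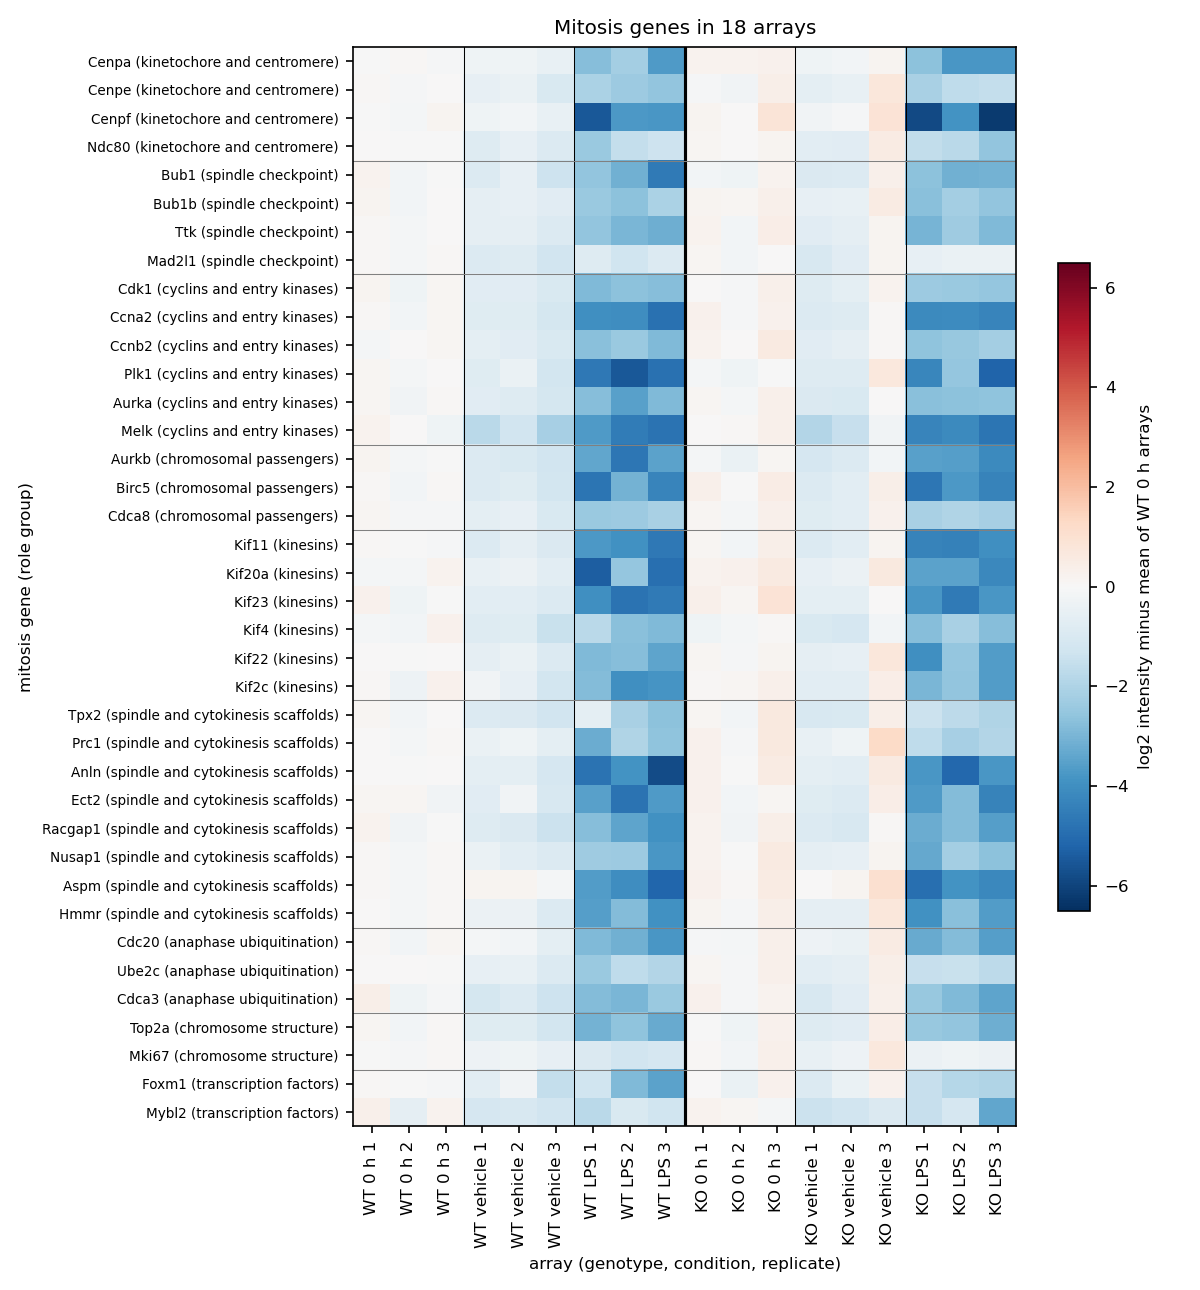
Log2 intensity of 38 mitosis genes (rows, by role) in 18 arrays (columns), relative to the mean of the 3 WT 0 h arrays; blue is lower. The LPS columns are blue in nearly every row in both genotypes, Mad2l1 and Mki67 are paler, and KO vehicle array 3 is redder than its 2 neighbours.

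After 8 h with vehicle and without conditioned medium, part of the mitosis genes read lower in WT cells. Of 38 genes 13 fell and 0 rose by limma with Benjamini-Hochberg adjusted p under 0.05, against 7.01% of all genes lower and 7.17% higher. The median log2 difference was -0.77 against -0.002 over all genes, and 37 genes lay below 0. An unadjusted p under 0.05 was seen for 23 genes, against 25.6% of all genes. The groups did not overlap for 35 genes, against 17.8% of all genes lower without overlap. The count changed with each replicate left out. It was 3, 6 and 1 without WT replicate 1, 2 and 3 (all arrays of that number left out), and 29 when the fit held WT vehicle and 0 h arrays only.

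Melk, a kinase strongly expressed in dividing progenitors, had the largest fall. It read 187, 163 and 132 units at 0 h and 47.7, 67.9 and 35.9 after vehicle in WT cells, so that every vehicle array lay below every 0 h array. The log2 difference was -1.70 ± 0.37 (SE, n = 3 arrays each; adjusted p = 0.004677 by limma).

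Cdca3, a subunit of a ubiquitin ligase that degrades Wee1, read 609, 384 and 437 units at 0 h and 214, 249 and 184 after vehicle (log2 difference -1.13 ± 0.31). Racgap1, of the centralspindlin complex of the dividing cell's midzone, read 491, 363 and 416 units and then 236, 223 and 158 (-1.05 ± 0.31). Kif4, a chromosome-bound kinesin, read 134, 128 and 175 units and then 79.4, 82.6 and 52.2 (-1.05 ± 0.29). Aurkb, the kinase of the chromosomal passenger complex, read 349, 282 and 311 units and then 170.3, 159 and 131 (-1.04 ± 0.31). In each of these genes the vehicle arrays lay below the 0 h arrays. Adjusted p ran from 0.02043 for Cdca3 to 0.03277 for Racgap1.

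By role, 5 of 6 cyclins and entry kinases fell in WT cells (Cdk1, Ccna2, Ccnb2, Aurka and Melk; Plk1 at -0.82 did not pass), with a median log2 difference of -0.87. Chromosomal passengers fell in 2 of 3 (Aurkb and Cdca8, a borealin; Birc5, survivin, at -0.96 did not pass), kinesins in 2 of 6 (Kif4 and Kif11). None of 4 kinetochore genes passed (-0.76 to -0.32). The spindle checkpoint had 1 of 4, Mad2l1, which binds Cdc20 (-0.99 ± 0.23, adjusted p = 0.007132). Racgap1 alone of 8 spindle and cytokinesis scaffolds passed, and Aspm, a spindle pole scaffold, lay at 0.07 ± 0.34. Cdca3, of the anaphase ubiquitination genes, and Top2a, of the chromosome structure genes, passed too.

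In KO cells 2 of 38 genes fell after vehicle and 0 rose, against 5.8% of all genes lower and 6.78% higher. Melk read 159, 166 and 197 units at 0 h and 42.1, 56.1 and 136 after vehicle (log2 difference -1.34 ± 0.37, adjusted p = 0.02391 by limma). Ccnb2, a mitotic cyclin, read 1266, 1079 and 1581 units and then 645, 703 and 1102 (-0.70 ± 0.20, adjusted p = 0.02925). Array 3, the highest vehicle array in both genes, left Melk without overlap and let Ccnb2 overlap by a single array. The median over 38 genes was -0.50. Without that array 16 genes fell, with a median of -0.83, where 6.15% of all genes were lower, and Melk and Ccnb2 stood at -1.83 and -0.94. The WT and KO vehicle differences of the 38 genes had a Pearson correlation of 0.821 and a Spearman correlation of 0.756, a description over genes that share arrays.

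After LPS nearly all of the mitosis genes read lower still in both genotypes. In WT cells 35 of 38 genes fell and 0 rose against vehicle, where 18.6% of all genes were lower (limma, adjusted p under 0.05), with a median log2 difference of -2.27 against -0.007 over all genes. In KO cells 34 fell and 0 rose, where 20.6% of all genes were lower, with a median of -2.45 (33 and -2.13 without KO vehicle array 3). The 34 genes lower in KO were also lower in WT cells, and 34 genes in each genotype fell at least 2-fold. The vehicle arrays did not overlap the LPS arrays for 34 genes in WT (22.5% of all genes lower) and 35 in KO cells (26.3%). Where a pair of log2 differences is given below, the first is for WT and the second for KO cells. Over the 18 alternatives, WT counts ran from 32 to 37 and KO counts from 33 to 35.

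**Figure D3:**
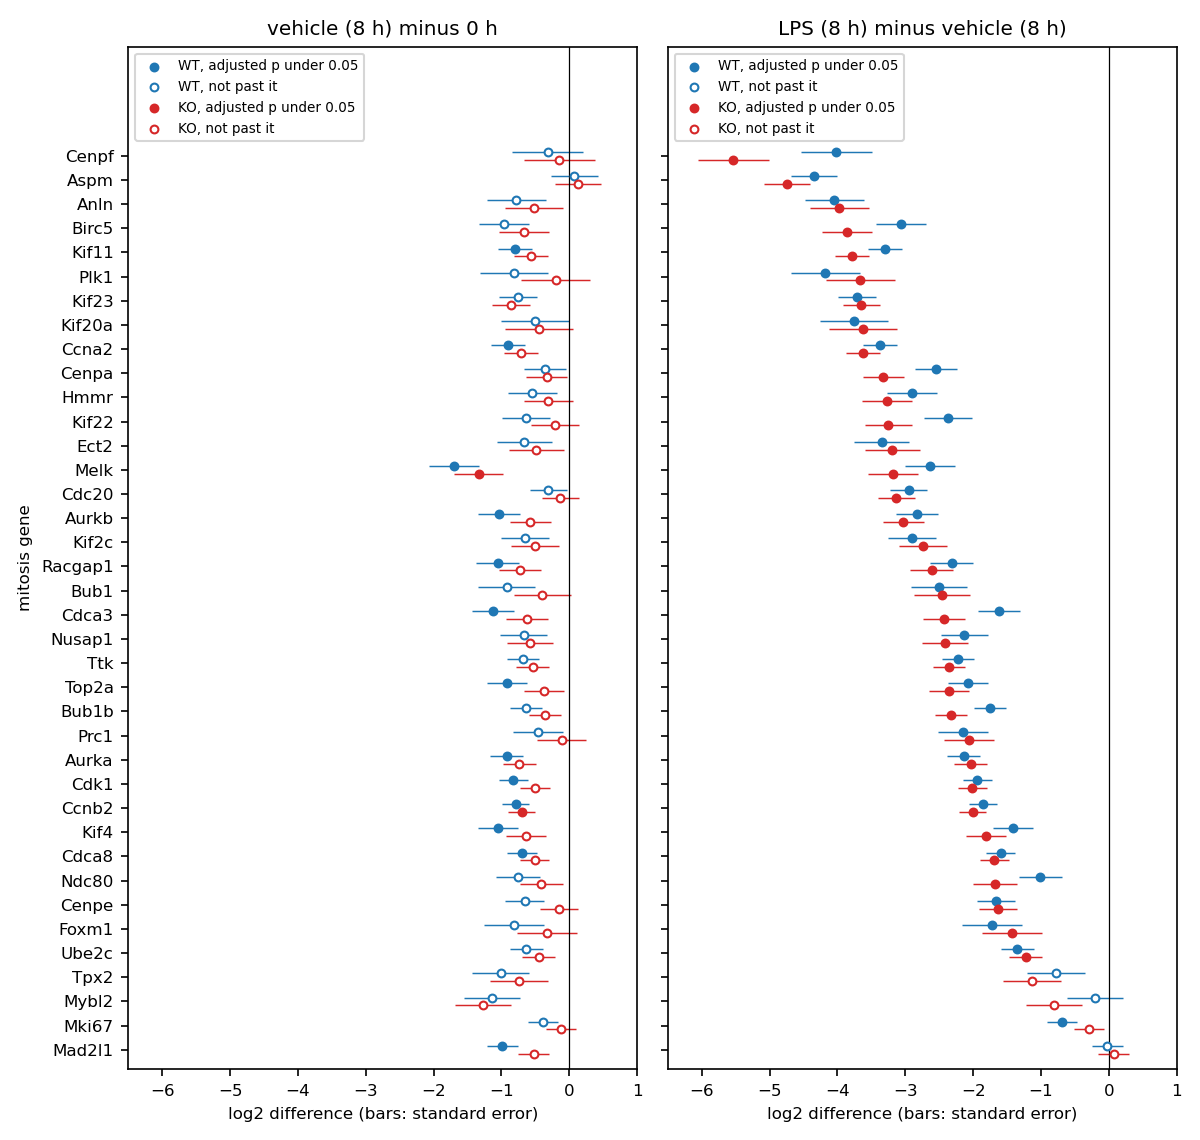
Log2 differences with standard errors for 38 mitosis genes, vehicle minus 0 h (left) and LPS minus vehicle (right), in WT (blue) and KO (red) cells. Filled points pass adjusted p under 0.05, and LPS points are filled for all genes but Mad2l1, Mybl2 and Tpx2 in WT and these and Mki67 in KO cells.

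Kinetochore genes fell in 4 of 4 in both genotypes. Cenpf, a large protein of the outer kinetochore and nuclear envelope, read 304, 321 and 265 units in WT vehicle arrays and 8.05, 28.2 and 26.9 after LPS. KO arrays read 320.4, 353 and 675 after vehicle and 6.29, 24.8 and 4.91 after LPS. All LPS arrays lay below all vehicle arrays in both genotypes, with log2 differences of -4.02 ± 0.53 and -5.54 ± 0.53 (adjusted p = 1.542e-05 and 3.776e-07), and 1 and 2 LPS arrays at or under the nonspecific level. Without KO vehicle array 3 the KO difference was -5.20 ± 0.58. Further Cenpf probe sets, above the nonspecific level in 14 and 16 arrays, fell less. They gave -0.42 in WT and -1.22 in KO cells, and -2.21 and -1.88. Cenpa, the centromeric histone, fell (-2.54 and -3.32), Cenpe, a kinetochore motor, (-1.67 and -1.64), and Ndc80, which binds microtubules, (-1.01 and -1.68).

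Spindle checkpoint genes fell in 3 of 4. Bub1, a checkpoint kinase, read 215, 272 and 155 units in WT vehicle arrays and 66.4, 46 and 16.4 after LPS, and 208, 214 and 505 then 62.9, 44.9 and 47.5 in KO cells. The groups did not overlap in either genotype, and the log2 differences were -2.50 ± 0.42 and -2.46 ± 0.42 (adjusted p = 0.0001646 and 0.0001649; KO -2.04 without array 3). Bub1b, the checkpoint kinase BubR1, fell (-1.75 and -2.33), and Ttk, the kinase Mps1, fell (-2.22 and -2.36). Mad2l1 did not follow. It read 356, 363 and 276 units in WT vehicle and 365, 267 and 350.4 in WT LPS arrays, and 322, 392 and 732 then 456, 485 and 483 in KO cells, overlapping in both (log2 differences -0.02 ± 0.23 and 0.07 ± 0.23; KO 0.42 without array 3). It had fallen after vehicle in WT cells.

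The cyclins and entry kinases fell in 6 of 6 in both genotypes. Plk1, Polo-like kinase, read 130, 164 and 96.4 units in WT vehicle and 9.02, 4.91 and 7.79 in WT LPS arrays, all 3 at or under the nonspecific level, at least 7.18-fold lower (log2 difference -4.18 ± 0.51, adjusted p = 7.347e-06). KO arrays read 125, 126 and 358 and then 11.9, 39.1 and 6.03 (-3.66 ± 0.51, adjusted p = 2.385e-05; -3.16 without array 3). The LPS arrays lay below the vehicle arrays in each genotype. Ccna2, cyclin A2, fell (-3.38 and -3.62), Melk (-2.63 and -3.18), Aurka, which matures centrosomes, (-2.14 and -2.03), Cdk1 (-1.94 and -2.01) and Ccnb2 (-1.85 and -2.01). Melk was at or under the nonspecific level in every LPS array, at least 2.76-fold and 4.08-fold lower.

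The chromosomal passengers fell in 3 of 3. Birc5, survivin, read 370, 391 and 295 units in WT vehicle and 25.7, 80.9 and 34.9 in WT LPS arrays (-3.07 ± 0.37), and 373, 416 and 881 then 26.5, 50.5 and 33.4 in KO cells (-3.86 ± 0.37; -3.47 without array 3). No array overlapped between vehicle and LPS. Aurkb fell (-2.83 and -3.03) and Cdca8 (-1.60 and -1.69) (log2).

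Kinesins, the motors of the spindle, fell in 6 of 6 in both genotypes. Their median differences were -3.10 and -3.44, and -2.26 and -2.58 with dim values raised to the nonspecific level. Kif11, which pushes spindle poles apart, read 73.9, 89.7 and 71.6 units in WT vehicle and 10.2, 9.04 and 5.42 in LPS arrays, at least 4.41-fold lower. KO arrays read 74, 86 and 152 and then 6.71, 6.53 and 8.46, at least 5.88-fold lower (log2 difference -3.78 ± 0.25, adjusted p = 6.923e-09; -3.47 without array 3). All 6 LPS arrays were at or under the nonspecific level. Kif23, of centralspindlin, was likewise at least 3.98-fold and 5.26-fold lower. Kif20a, needed for passenger relocation, read 161, 176 and 142 units in WT vehicle and 5.58, 38.8 and 7.44 in LPS arrays (-3.76 ± 0.50). Kif2c, a microtubule depolymerase, was at least 5.54-fold lower in WT cells, and its KO difference was -2.74. Kif22 fell (-2.37 and -3.25) and Kif4 (-1.41 and -1.81).

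Spindle and cytokinesis scaffolds fell in 7 of 8 in each genotype, and the exception was Tpx2. Aspm read 375, 373 and 299 units in WT vehicle and 26.8, 20.3 and 9.11 in WT LPS arrays, the lowest WT log2 difference of the set (-4.35 ± 0.34, adjusted p = 6.026e-08). In KO cells it read 332, 379 and 667 and then 10.9, 22.3 and 18 (-4.74 ± 0.34, adjusted p = 1.607e-08; -4.44 without array 3). Aspm overlapped between 0 h and vehicle in both genotypes. Anln, an actin-binding protein of the cleavage furrow, read 505, 518 and 377 units in WT vehicle and 28.9, 52.8 and 14.3 in LPS arrays (-4.05 ± 0.43), and 502, 494 and 1202 then 57.6, 22.9 and 58.6 in KO cells (-3.97 ± 0.43; -3.55 without array 3). Neither gene overlapped. Ect2, needed for cytokinesis, fell (-3.35 and -3.19), Hmmr, a hyaluronan receptor and spindle protein, (-2.90 and -3.27), Racgap1 (-2.32 and -2.61), Prc1, a microtubule bundler, (-2.15 and -2.06) and Nusap1 (-2.13 and -2.42).

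Tpx2, which activates Aurora A, read 219, 216 and 176 units in WT vehicle and 267, 96.6 and 64 in WT LPS arrays, with overlap (-0.78 ± 0.43, adjusted p = 0.1949). In KO cells it read 196, 205 and 535 and then 155, 126 and 105, without overlap (-1.13 ± 0.43, adjusted p = 0.05057; -0.66 without array 3). WT LPS array 1 was the highest of its group. A further probe set of Tpx2 gave -1.53 and -1.995 (log2) in WT and KO cells.

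The anaphase ubiquitination genes fell in 3 of 3. Cdc20, the activator of the anaphase-promoting complex, read 397, 392 and 284 units in WT vehicle and 60.2, 50.8 and 31.5 in LPS arrays, and 348, 324 and 626 then 46.1, 62.1 and 36.8 in KO cells. Vehicle and LPS arrays did not overlap (-2.95 ± 0.27 and -3.13 ± 0.27, adjusted p = 4.063e-07 and 1.523e-07; KO -2.83 without array 3). Cdca3 fell (-1.62 and -2.43) and Ube2c, the E2 enzyme of the complex, (-1.35 and -1.23) (log2).

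Of the chromosome structure genes Top2a fell and Mki67 moved little. Top2a read 618, 610.3 and 453 units in WT vehicle and 126, 169 and 109 in LPS arrays, and 580, 626 and 1426 then 191, 176 and 116 in KO cells, without overlap (-2.07 ± 0.29 and -2.35 ± 0.29; KO -1.94 without array 3). Mki67, the Ki-67 protein that coats mitotic chromosomes, read 1241, 1287 and 1065 units in WT vehicle and 831, 670.1 and 730 in LPS arrays, without overlap (-0.69 ± 0.22, adjusted p = 0.02215). In KO cells it read 1140, 1234 and 2481 and then 1211, 1285 and 1223, overlapping (-0.29 ± 0.22, adjusted p = 0.3504; 0.06 ± 0.14 without array 3).

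Of the 2 transcription factors Foxm1 alone passed the test in each genotype. Foxm1, which drives G2 genes, read 49.1, 67.6 and 27 units in WT vehicle and 32, 10.8 and 7.12 in LPS arrays, with overlap (-1.73 ± 0.44, adjusted p = 0.005741). In KO cells it read 42.4, 57.2 and 93.9 and then 27.3, 21.6 and 20.1, without overlap (-1.42 ± 0.44, adjusted p = 0.01845), and the KO call was lost without array 3 (-1.11 ± 0.48, adjusted p = 0.09113). Mybl2, B-Myb, was dim, at 18.4, 19.3 and 16.5 units in WT vehicle and 11.9, 20.2 and 15.9 in LPS arrays, and did not pass (-0.20 and -0.81; KO -0.67 without array 3).

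A further 31 probe sets read 22 of the 38 genes. Of these, 22 lay above the nonspecific level in at least 12 arrays, and all 22 were lower after LPS in WT and in KO cells, 18 and 22 of them at least 2-fold. The genes that hold a CHR match near the start had a median KO difference of -2.45 (26 genes) and those without one -2.42 (7 genes).

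The genotypes did not differ past the threshold in any mitosis gene. KO against WT gave 0 of 38 called at 0 h (0.111% of all genes higher, 0.0292% lower), 0 after vehicle (0%) and 0 after LPS (2.81% higher, 3.15% lower, 5.96% in all), by limma. An unadjusted p under 0.05 was seen for 0, 0 and 2 genes, against 6.19%, 4.54% and 19% of all genes. Groups did not overlap for 2 genes at 0 h (7.56% of all genes higher and 7.02% lower without overlap), 2 after vehicle (6.42% and 5.62%) and 4 after LPS (8.36% and 10.1%). Median differences were 0.12, 0.40 and 0.17 (log2). After vehicle 37 of 38 genes read higher in KO cells, but the median was 0.05 without array 3, and 95% intervals of single genes reached from -0.93 to 1.63. A missing call does not show that the genotypes were alike.

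Mki67 and Mad2l1 were the 2 of 38 genes with unadjusted p under 0.05 after LPS, where 19% of all genes had one. Mki67 read 831, 670.1 and 730 units in WT and 1211, 1285 and 1223 in KO LPS arrays, without overlap, a log2 difference of 0.74 ± 0.22 (adjusted p = 0.05655). Mad2l1 read 365, 267 and 350.4 in WT and 456, 485 and 483 in KO arrays, also without overlap (0.55 ± 0.23, adjusted p = 0.1921). Both were called by limma in a fit without KO vehicle array 3 (adjusted p = 0.002499 and 0.03979), in which 1130 of all 17097 genes were called. Their difference was the same in that fit and its SE was 0.13 and 0.15. KO vehicle array 3 enters this comparison only through the shared estimate of the spread. It was left out after its high values in these genes were seen. Both calls thus rest on the smaller SE and cannot decide whether the genotypes differ. Mki67 and Mad2l1 are also the genes that LPS lowered least in KO cells, but that comparison uses the same KO LPS arrays and is no separate support.

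The difference of responses tests the genotypes directly. None of 38 genes passed for the LPS response by limma (0.521% of all genes higher, 0.597% lower and 1.12% in all), and none for the vehicle response (0%). An unadjusted p under 0.05 was seen for 0 and 0 genes, against 12.1% and 3.68% of all genes. Cenpf had the lowest LPS interaction, -1.52 ± 0.74 (95% interval -3.09 to 0.06; adjusted p = 0.4341), which reads -0.91 on values raised to the nonspecific level. A further Cenpf probe set fell less in KO (-1.88) than in WT cells (-2.21), and another fell more (-1.22 against -0.42). The median over the genes was -0.19, and 0.12 without array 3, so its sign was not settled. The LPS differences of the genotypes had a Pearson correlation of 0.936 and a Spearman correlation of 0.95 over the 38 genes, as a description.

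**Figure D4:**
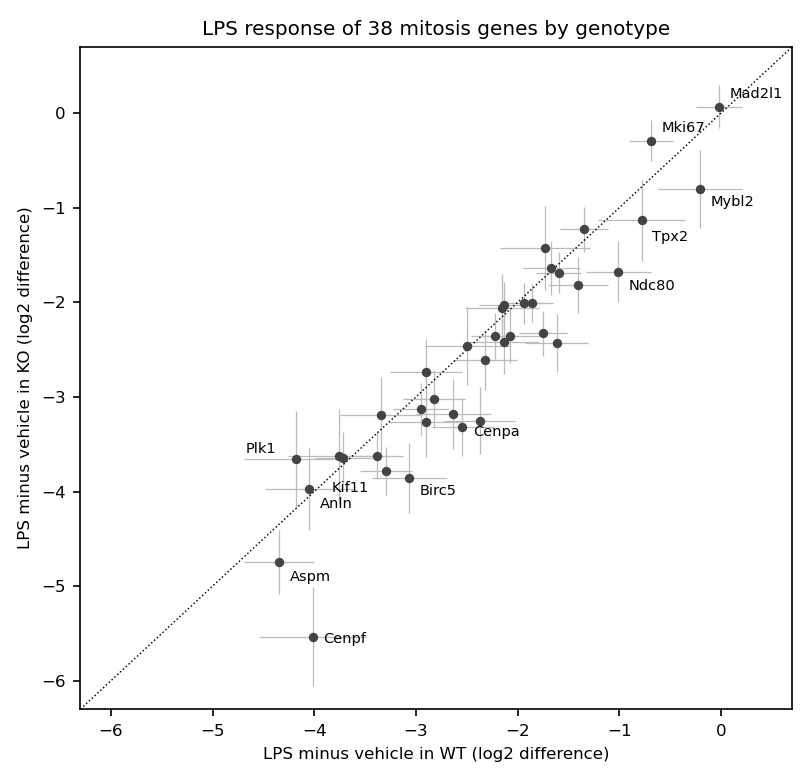
LPS minus vehicle log2 difference in WT (horizontal) and KO (vertical) cells for 38 mitosis genes, with standard errors; the dotted line marks equal differences. Points lie near the line from Mad2l1 at about 0 to Cenpf at -4.02 and -5.54.

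DNA replication genes, the partner program of S phase, were set beside them. Of 24 replication genes 22 fell after vehicle in WT cells and 17 in KO cells (medians -1.42 and -1.05), beside 7.01% and 5.8% of all genes. With LPS against vehicle 11 and 13 fell (-0.64 and -0.66), beside 18.6% and 20.6% of all genes. Without KO vehicle array 3 the KO count after vehicle was 22 (median -1.32), where 6.15% of all genes were lower. With LPS 8 were then lower and 2 higher (median -0.435), where 19.4% of all genes were lower. The mitosis genes stood at 13 and 2 after vehicle and 35 and 34 with LPS, and without that array at 16 and 33 in KO cells, and the difference between the lists was not tested. Per array, the mean over the mitosis genes was 8.45 ± 0.12 (log2, SD, n = 3) at 0 h, 7.69 ± 0.24 after vehicle and 5.34 ± 0.23 after LPS in WT cells, and 8.58 ± 0.22, 8.09 ± 0.61 and 5.5 ± 0.24 in KO cells. The replication means were 8.38 ± 0.35, 6.85 ± 0.14 and 6.14 ± 0.11 in WT cells and 8.26 ± 0.27, 7.16 ± 0.52 and 6.08 ± 0.12 in KO cells.

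**Figure D5:**
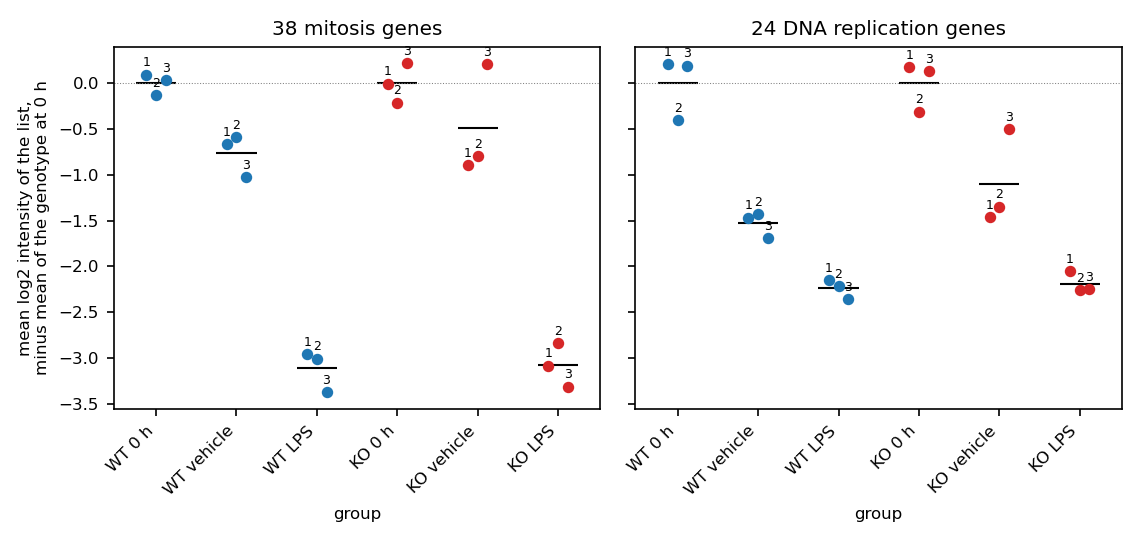
Mean log2 intensity of 38 mitosis genes (left) and 24 replication genes (right) in each array, relative to the mean of the same genotype at 0 h; numbers are replicates and lines are group means. Mitosis genes drop more between vehicle and LPS than before it in both genotypes. Replication genes drop more between 0 h and vehicle in WT cells and by about the same in both steps in KO cells. KO vehicle array 3 lies above its group in both panels and is part of the KO vehicle mean. Without it the median log2 differences of the replication genes in KO cells were -1.32 after vehicle and -0.435 with LPS.

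Other mitotic genes were taken from 6 further lists drawn up with earlier results of these data known. Over all genes 18.6% were lower with LPS in WT and 20.6% in KO cells. Of 32 other kinetochore and centromere genes 19 fell and 1 rose with LPS in WT and 20 fell and 1 rose in KO cells (median differences -1.17 and -1.24), for example Spc25, a partner of Ndc80, (-2.56 and -2.62) and Ska1, a microtubule coupler, (-2.67 and -2.42). The gene that rose was Cenpm (1.01 and 0.68). Of 33 spindle, motor and cytokinesis genes 22 fell in each (1 rose in WT). Ckap2, a spindle protein, fell (-3.95 and -3.48), and Cep55, which organises abscission, (-3.20 and -4.13). Entry and exit regulators fell in 10 and 11 of 16 (0 and 1 rose), with Cdc25b, the phosphatase that activates Cdk1, at -2.61 and -2.94. Cohesin, condensin and mitotic chromatin genes fell in 13 and 14 of 15, with the condensin subunit Ncapg2 at -4.72 and -3.80.

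Subunits of the anaphase-promoting complex moved less. Of 11 measured, 4 fell in WT and 7 fell and 1 rose in KO cells, with medians of -0.30 and -0.37, and Anapc11, its catalytic subunit, fell (-0.65 and -0.64). Of 21 MuvB, DREAM and E2F regulators 6 fell and 2 rose in WT and 8 fell and 1 rose in KO cells, with medians of -0.27 and -0.14, beside 18.6% of all genes lower and 13.7% higher in WT and 20.6% and 13.9% in KO cells. The repressor Rbl2 fell (-1.37 and -1.52), Rb1 (-1.16 and -1.96), and E2f3 rose by 0.93 and 0.85. After vehicle Nfya, an NF-Y subunit, rose by 0.56 and 0.75. Between genotypes after LPS, Iqgap3 (1.54 ± 0.37, adjusted p = 0.01936), the nuclear envelope gene Lbr (1.21 ± 0.26, adjusted p = 0.009489), the kinetochore gene Nsl1 (0.95 ± 0.23, adjusted p = 0.02294) and the condensin gene Smc4 (0.62 ± 0.14, adjusted p = 0.0111) were higher in KO cells, and Rb1 (-0.92 ± 0.16, adjusted p = 0.0023) was lower, by limma over all genes. Over these 6 lists together, 82 of 128 genes fell and 4 rose with LPS in KO cells. Without array 3, 73 fell and 6 rose, where 19.4% of all genes were lower. After vehicle 14 fell and 4 rose in KO cells, beside 5.8% of all genes lower and 6.78% higher. Without array 3, 38 fell and 3 rose, where 6.15% of all genes were lower. Of the 128 genes 4 were higher and 1 was lower in KO than in WT cells after LPS. Over all genes the shares were 2.81% higher, 3.15% lower and 5.96% in all. The counts became 9 and 1 without array 3, where 1130 of all 17097 genes were called. Subunits of the anaphase-promoting complex lower with LPS in KO cells became 4 in place of 7 without that array. Smc4 read 454, 568 and 507 units in WT and 790.1, 771 and 784 in KO LPS arrays.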

How the data were processed

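RNA of 18 macrophage samples in 6 groups of 3 was measured on an Affymetrix HT MG-430PM plate. The deposited values are linear intensity per probe set, made by the authors with Partek per the submitters' processing notes; no source used here gives its version, background correction or scaling. The columns did not share a distribution, so log2 intensity was quantile-normalized over non-control probe sets. Of 45037 such probe sets 28898 have 1 gene symbol, 551 several and 15588 none. limma 3.58.1 in R 4.3.3 fitted 1 mean per group to 17097 genes. P-values are two-sided, Benjamini-Hochberg adjusted over all genes (threshold 0.05), and errors of differences are standard errors. "At least" folds are set against the nonspecific level where all 3 dimmer arrays lie at or under it. The code was tested on simulated data.

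Members and lists were chosen with earlier results of these data known. Values in every array are given for up to 5 genes with the largest differences per comparison, 1 per role, and the exceptions Mad2l1, Mki67, Tpx2 and Mybl2, added after their values were seen. From each pathway list up to 3 such genes were eligible, and Cenpm, E2f3 and Nfya were named after their values were seen. Lists matched 152 of 161 pathway and 55 of 61 marker entries. Scaling, probe set choice, filters, blocks and left-out replicates were tried as alternatives. The fit without KO vehicle array 3, counted among the 18 alternatives, was not planned and was added after its values were seen. Promoter sequences are RefSeq GRCm38.p6.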

Additional observations from a re-analysis of the deposited data

Results flagged for a closer look

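No mitosis gene had a response that differed between genotypes past the threshold, but 2 of the 24 DNA replication genes set beside them did. For the LPS response 1.12% of all genes did. For Gins1 and Cdt1 the LPS response differed between KO and WT cells by the interaction term of limma, adjusted over all genes. Gins1, a subunit of the helicase that opens replication forks, read 62.9, 48 and 37.3 units in WT LPS arrays and 11.7, 7.56 and 9.01 in KO LPS arrays, with no overlap and all 3 KO arrays at or under the nonspecific level. Its fitted interaction of -2.79 ± 0.40 (log2, SE, adjusted p = 0.002013) is therefore no exact size, and it was -1.92 ± 0.36 (adjusted p = 0.006587) with dim values raised to that level and -2.43 ± 0.33 (adjusted p = 0.001999) without KO vehicle array 3. Cdt1, which loads that helicase onto DNA, read 517, 428 and 276 units in WT and 190.4, 165 and 147 in KO LPS arrays, also with no overlap (interaction -1.40 ± 0.27, adjusted p = 0.01457). The Cdt1 interaction was -1.39 ± 0.29 (adjusted p = 0.0291) without KO vehicle array 3, and its call was lost without all KO arrays of replicate 3 (-1.30 ± 0.32, adjusted p = 0.1106).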

How the results depend on the processing

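Of the 18 alternatives, the scalings, probe set choice, filter, floor, fit and left-out arrays kept the LPS counts, with 32 to 37 members lower in WT and 33 to 35 in KO cells, and no called value of the named genes turned its sign. The uncalled Mki67 difference with LPS in KO cells went from -0.29 to 0.06 without KO vehicle array 3, the uncalled Aspm difference after vehicle in KO cells from 0.13 to -0.18, and the median LPS interaction from -0.19 to 0.12. The count lower after vehicle in WT cells was 23 with deposited values, 29 with only the compared groups in the fit, and 1 to 19 leaving out replicates. In KO cells it was 14 with equal medians, 15 with deposited values, 5 with equal hybridisation controls, 4 with the mean of all probe sets, 6 with the filter on dim probe sets, 5 with values raised to the nonspecific level, 1 with only the compared groups, 5 with an intensity trend, 16 without KO vehicle array 3 and 0 to 9 leaving out replicates. KO against WT after LPS gave 1 call with equal medians, 3 with deposited values, 2 with equal hybridisation controls, 1 each with the mean of all probe sets, the filter, the floor and the trend, 2 without KO vehicle array 3, and 0 to 2 leaving out replicates. The WT LPS median was -2.88 with deposited values and -2.87 with equal hybridisation controls, where the median of all genes was -0.442 and -0.428. The median LPS interaction was 0.26 and 0.27 under them, where all genes had 0.44 and 0.456. The cause was not tested. The Foxm1 KO call was lost without KO replicate 2 (adjusted p = 0.09173) and 3 (0.1984). Signal near the nonspecific level limits the largest falls.

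Whether replicate numbers pair the samples was not settled. Deviations of same-numbered arrays correlated at -0.046 to 0.144 within a genotype (median 0.0405, 2 of 18 pairs over 0.1). Between genotypes they correlated at -0.084 to 0.11 (median -0.003, 1 of 9 over 0.1). Such weak correlations cannot show that the samples were unpaired. The mitosis genes of WT replicate 3 deviated on average by -0.268 (log2) with vehicle, -0.261 with LPS and 0.038 for 0 h. For KO replicate 3 these values were 0.701, -0.234 and 0.216. With the replicate block, number over all arrays or genotype and number, the count after vehicle was 12 or 14 in WT and 4 and 4 in KO cells, and the LPS counts were 35 and 35 in WT and 34 and 35 in KO cells.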
